A study of Mus musculus with 4 samples.

Results

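Of the 43280 genes counted in these retina libraries, 74 were chosen by their levels, which stood high in a single library, that of a streptozotocin (STZ) treated mouse retina tagged 2L. A member had at least 200 normalized counts in STZ 2L and at least 10 times the largest value of the other 3 libraries. A normalized count is a gene's read count divided by a size factor of its library. Crystallins and other genes of the eye lens led the set, and the 74 members together took 9.84% of all gene reads in STZ 2L. The choice rests on the levels in all 4 libraries, so the difference between STZ 2L and the others is given as a description and was not tested.

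Messenger RNA of dissected retina was sequenced on the Ion Torrent platform in 2 libraries of STZ mice and 2 of citrate controls. All mice were wildtype, of a strain written as C6/BL6J in the labels. STZ, which destroys the beta cells of the pancreas, was injected daily at 50 mg/kg over 5 days in mice aged 6 weeks, while controls received citrate buffer. The mice were checked for hyperglycaemia (above 25 mM) 10 days later, and retinas were collected at 18 weeks of age. The libraries are named by group and by the tag of their column. Both columns tagged 4R name their group, but the labels carry 4L in that place, so these columns are tied to a group and not to a particular sample. The labels do not say whether each library of a group is from its own animal, and no other library analysed here was rich in these transcripts.

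The lens is a transparent body of fibre cells under a single epithelial layer, enclosed in a capsule of basement membrane. As fibre cells mature they fill with crystallins, soluble proteins that give the lens its refractive power, build a beaded filament cytoskeleton, join through connexins and the water channel Mip, and remove their nuclei and organelles. The lens lies in front of the vitreous and is removed when retina is dissected, so lens tissue is not meant to be part of a retina sample, although some crystallins, above all Cryab, are also made in retina.

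The tissue label and the lens label were both set beside markers. The 15 listed lens fibre markers, including Cryaa, Crybb2 and Bfsp1, were all members. Their normalized counts summed to 2443270 in STZ 2L and 4596, 4573 and 648 in STZ 4R, control 2L and control 4R. Membership rests on these same values, so this describes the lens label and cannot check it. Among the fibre markers Dnase2b was at 0 in both controls. Of 6 lens epithelium markers, 2 were members, and the 6 summed to 14348 in STZ 2L and 10698 to 11777 elsewhere. Pax6, the most abundant of them, had 9439 in STZ 2L and 9362 to 10216 elsewhere, while each of the rest was highest in STZ 2L. Rod markers summed to 2438095 in STZ 2L and to between 2785178 and 3246578 in the other libraries, so every library held abundant retina RNA. The 7 markers of cornea and conjunctiva epithelium, none of them a member and none at 0, summed to 8532 (STZ 2L) and 9721 (STZ 4R), but to 1419 and 512 in controls 2L and 4R. Krt12 was the gene that made the STZ 4R sum the larger, at 3715 against 652 in STZ 2L; Krt5 and Dsp were also higher in STZ 4R, while Aldh3a1, Ppl, Krt6a and Krt14 were higher in STZ 2L. The 7 markers of ciliary body and iris summed to 23620 in STZ 2L and 21815 to 26649 elsewhere. Car2 (18653) and Aqp4 (3094) made up most of the STZ 2L sum, so the sum says little of the rest. Among the 7, Tyrp1 (704 against 34.1 to 428), Otx1 (147 against 20.5 to 67.0), Wfdc1 and Slc4a4 were highest in STZ 2L, and Mlana, Car2 and Aqp4 were not. The 4 pigment epithelium markers summed to 3035 in STZ 2L and 1094 to 3226 elsewhere. The part of these tissues in the member values was not tested. In bulk tissue, fewer cells of a type and less RNA per cell cannot be told apart.

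Gene reads came to between 29352330 and 39299653 per library. Members took 3264552 of 33166680 reads in STZ 2L, which is 9.84% (exact 95% interval by Clopper-Pearson, 9.83 to 9.85). The same genes took 0.0358% (0.0352 to 0.0364) in STZ 4R, 0.0340% (0.0333 to 0.0347) in control 2L and 0.0204% (0.01995 to 0.0209) in control 4R. These intervals cover counting error only. Without the members, the normalized counts of STZ 2L summed to 31551087, against 32154466 to 33369221 in the other libraries.

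**Figure D1:**
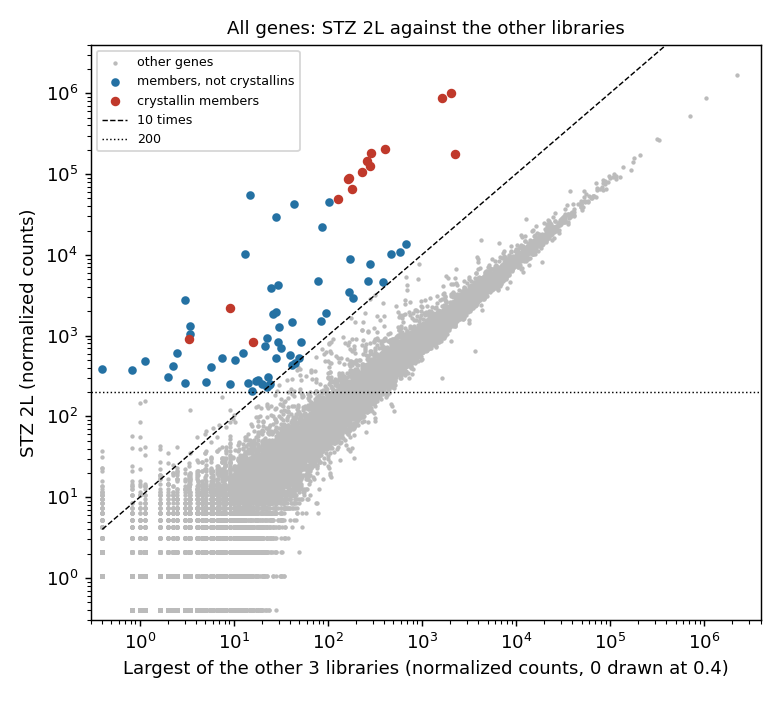
Each point is a gene, with its normalized counts in STZ 2L on the vertical log axis and its largest value among the other 3 libraries on the horizontal log axis. Red points are the 15 crystallin members, blue points the other members and grey points the remaining genes; the dashed and dotted lines are the limits of 10 times and 200. The crystallins reach 1017960 normalized counts in STZ 2L.

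The members spanned a wide range of levels. In STZ 2L, 8 of them lay above 100000 normalized counts, 13 between 10000 and 100000, 19 between 1000 and 10000 and 34 below 1000. By program, 36 belonged to lists of known lens genes, 15 of them crystallins, and 38 did not. The crystallins held 90.9% of member reads in STZ 2L, filament and membrane skeleton genes 3.23% (3.22 to 3.25), and water channel, membrane protein and adhesion genes 2.54% (2.52 to 2.56). The 38 members outside the lists held 1.94% (1.93 to 1.96). In the other libraries crystallins took less of the member reads, 65.6%, 68.0% and 41.4% in STZ 4R, control 2L and control 4R, and members outside the lists more, between 20.4% and 39.8%.

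**Figure D2:**
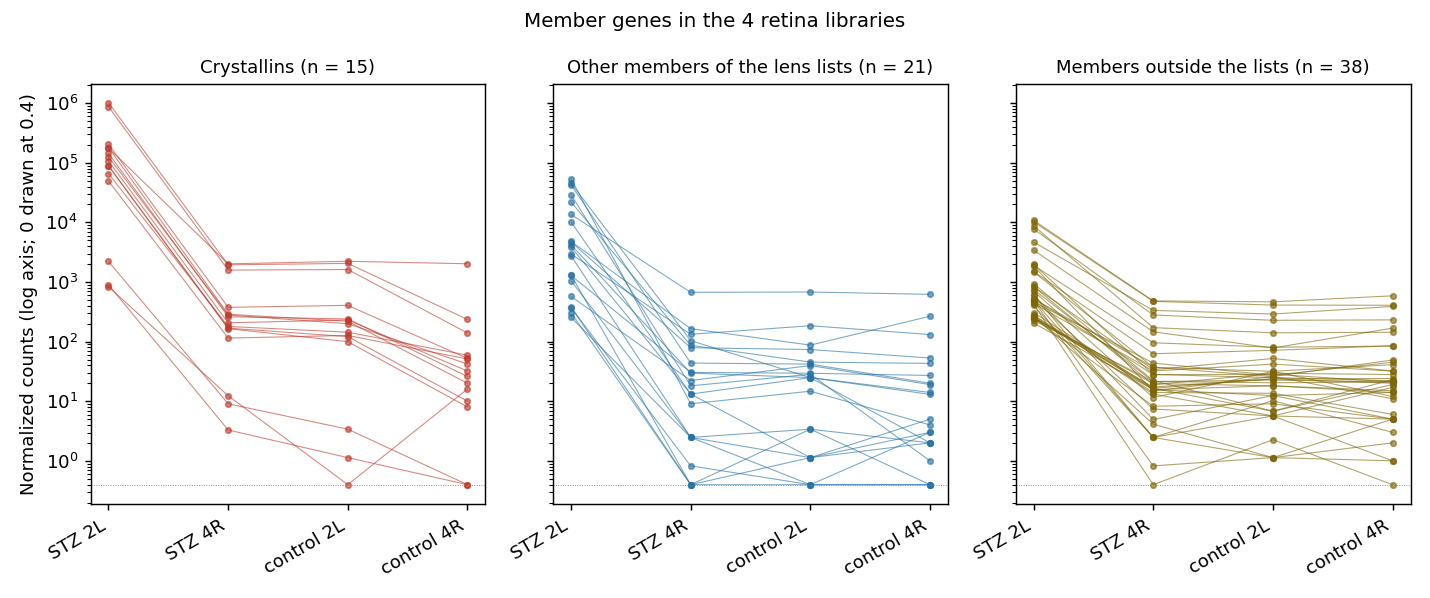
Normalized counts of every member in the 4 libraries, on a log axis with 0 drawn at 0.4, 1 line per gene, in panels for crystallins, other members of the lens lists and members outside the lists. Most crystallin lines fall again from control 2L to control 4R, while the lines of members outside the lists run mostly level over the 3 libraries other than STZ 2L.

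The alpha crystallins are small heat shock proteins that keep other lens proteins soluble. Cryaa, the form largely restricted to lens, reached 1017960 normalized counts in STZ 2L and 1945, 2058 and 236 in STZ 4R, control 2L and control 4R. Cryab, which muscle, heart and retina also make, had 177259 in STZ 2L and 2022, 2234 and 2028 in STZ 4R, control 2L and control 4R. The pair differed in the libraries poor in lens transcripts: Cryaa was lowest in control 4R, whereas Cryab was nearly level across those 3. Per kilobase of exon, Cryaa stood at 5.53 times Cryab in STZ 2L, at 0.926 times in STZ 4R, at 0.887 times in control 2L and at 0.112 times in control 4R.

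Beta crystallins form the largest group of structural lens proteins and assemble into oligomers. Crybb2, the major one of the adult lens, reached 873452 normalized counts in STZ 2L and 1589, 1625 and 140 in STZ 4R, control 2L and control 4R. Cryba1 had 205984 in STZ 2L and 377, 407 and 52.3 in STZ 4R, control 2L and control 4R. Both repeated the order of Cryaa, with STZ 4R and control 2L close together and control 4R lowest. Cryba2 had 144133 in STZ 2L and 262, 241 and 26.2 in STZ 4R, control 2L and control 4R, and Cryba4 had 107202, 208, 232 and 32.2 in that order of libraries. Crybb3 had 66035, 180, 144 and 59.3 normalized counts and Crybb1 49682, 115, 127 and 51.3, again in that order. Control 4R was lowest for each of the 6 beta crystallins, by a smaller factor for Crybb1 and Crybb3 than for the rest.

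Gamma crystallins are monomers, dense in the centre of the lens, which is laid down first. Crygb had 180637 normalized counts in STZ 2L and 289, 221 and 20.1 in STZ 4R, control 2L and control 4R. Crygc had 90075, 169, 122 and 10.1 in the same order, and Crygd 87946, 165, 100 and 8.05. All of these placed STZ 4R above control 2L and control 4R far below both. Cryge, with 2218, 9.10, 3.41 and 0, and Crygf, with 905, 3.31, 1.14 and 0, were much rarer. Crygs, the gamma form of the outer lens, had 126191 in STZ 2L and 280, 200 and 42.2 in STZ 4R, control 2L and control 4R. Crygn, which is also made in the nervous system, had 836 in STZ 2L and 12.4, 0 and 16.1 in STZ 4R, control 2L and control 4R, and so did not follow the order of the others. The remaining gene of the family, Cryga, had 120 in STZ 2L and 0, 3.41 and 0 in STZ 4R, control 2L and control 4R, and missed only the limit of 200.

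Gamma crystallin genes are recent copies of each other, which bounds how far single values can be read. Longest coding transcripts were 95.9% identical between Cryge and Crygf over 584 aligned bases, 90.6% between Crygd and Cryge over 555, and 83.2% between Crygb and Crygc over 536. Reads may therefore have been split among Crygd, Cryge and Crygf. A run of 4 members lies in a row on chromosome 1 (mm10), from Cryge at 65048554 through Crygd and Crygc to the end of Crygb at 65082288, with gaps of 10722, 8072 and 6529 bases, all on the minus strand. Crygf lies apart, from 65926520, on the plus strand. On chromosome 5, Cryba4 and Crybb1 are 3296 bases apart and Crybb2 and Crybb3 5721.

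The likeness of these genes extends into their promoters, shown here because these genes had a like order of values across the libraries. Each line below gives the 60 bases upstream of the RefSeq start on the GRCm38.p6 assembly (the assembly of mm10), read on the gene's strand, with a TATA-type match (TATAAA or TATATA, lying wholly between 40 and 16 bases upstream, gene strand) in capitals. Overlapping matches, as in Crygb, were counted as 1, and the RefSeq start can differ from the gene spans given above.
Crygb (chr1:65082291-65082350, minus strand): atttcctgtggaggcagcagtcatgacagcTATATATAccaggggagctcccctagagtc
Crygc (chr1:65073533-65073592, minus strand): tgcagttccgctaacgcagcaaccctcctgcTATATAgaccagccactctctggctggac
Crygd (chr1:65063441-65063500, minus strand): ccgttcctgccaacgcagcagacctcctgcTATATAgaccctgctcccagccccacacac
Cryge (chr1:65051164-65051223, minus strand): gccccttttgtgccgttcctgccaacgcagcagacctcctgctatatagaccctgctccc
Crygf (chr1:65926462-65926521, plus strand): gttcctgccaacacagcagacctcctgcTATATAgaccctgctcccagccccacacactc
In Cryge the same letters begin 18 bases upstream, so the match runs past that window and stands in lower case. A TATA-type match was present in 9 of 14 crystallin promoters (64.3%), 2 of 48 promoters of other members (4.17%) and 898 of 32851 promoters of all genes (2.73%). Counting any match that starts between 40 and 15 bases upstream, as was tried after seeing the data, gave 10 of 14 (71.4%), 2 of 48 (4.17%) and 957 of 32851 (2.91%). A match of letters is a description and does not show that a factor binds.

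Lens promoters are known for sites of the large Maf factors, whose core half-site reads TGCTGA. It was searched on both strands over 250 bases upstream and is capitalised below, together with TATA-type matches, in 140 bases upstream of 3 abundant members of different families, an alpha crystallin, a beta crystallin and the water channel Mip.
Cryaa (chr17:31677791-31677930, plus strand): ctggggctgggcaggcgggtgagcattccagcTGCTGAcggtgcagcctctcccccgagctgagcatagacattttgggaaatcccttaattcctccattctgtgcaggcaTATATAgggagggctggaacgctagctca
Cryba1 (chr11:77725294-77725433, minus strand): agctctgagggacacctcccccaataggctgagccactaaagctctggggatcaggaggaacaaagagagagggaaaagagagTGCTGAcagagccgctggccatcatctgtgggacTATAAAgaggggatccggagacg
Mip (chr10:128225670-128225809, plus strand): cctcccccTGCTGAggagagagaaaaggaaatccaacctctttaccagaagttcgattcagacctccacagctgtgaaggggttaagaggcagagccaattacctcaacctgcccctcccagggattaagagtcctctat
The half-site began 108 bases upstream in Cryaa, 57 in Cryba1 and 132 in Mip. TGCTGA or its reverse complement TCAGCA was present in 9 of 14 crystallin promoters (64.3%). It was in 12 of 48 promoters of other members (25.0%) and 5282 of 32851 of all genes (16.1%). The 3 promoters printed here all carry it, which the crystallins as a set did not. Of the gamma crystallins printed above, Crygb, Crygd, Cryge and Crygf had none, and Crygc had it 229 bases upstream. The letters AACAAT, a core of SOX factor sites searched the same way, were in 21.4% of crystallin promoters, 8.33% of those of other members and 9.42% of all.

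Levels of different genes can be compared only per length, and on that scale crystallins ranked with abundant rod transcripts. Crybb2 had 964075 normalized counts per kilobase of exon in STZ 2L and Cryaa 759105, the first and second values of all 40327 genes with a length. Crygb stood at 284916 and Cryba1 at 264761. Gnat1, the rod transducin, had 227951, between Cryba1 and Cryba2, which had 200185. Members made up 22.8% of the per-length total of STZ 2L, and between 0.0414% and 0.0915% in the other libraries. Among members alone, Crybb2 held 27.8% of the per-length total, Cryaa 21.9% and all crystallins 94.5%. The highest of the remaining members were Lim2 at 33063, Mip at 25331, Lgsn at 22217, Bfsp1 at 19139 and Bfsp2 at 13286. The order depends on the lengths used, here those of the basic transcript set. With lengths over all annotated transcripts, Cryaa held 21.4% of the member total, Crybb2 18.9%, Mip 1.10% and Lim2 0.583%. Cryaa then led Crybb2, and Mip led Lim2. The order also has no error from replicates, since a single library carries it.

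**Figure D3:**
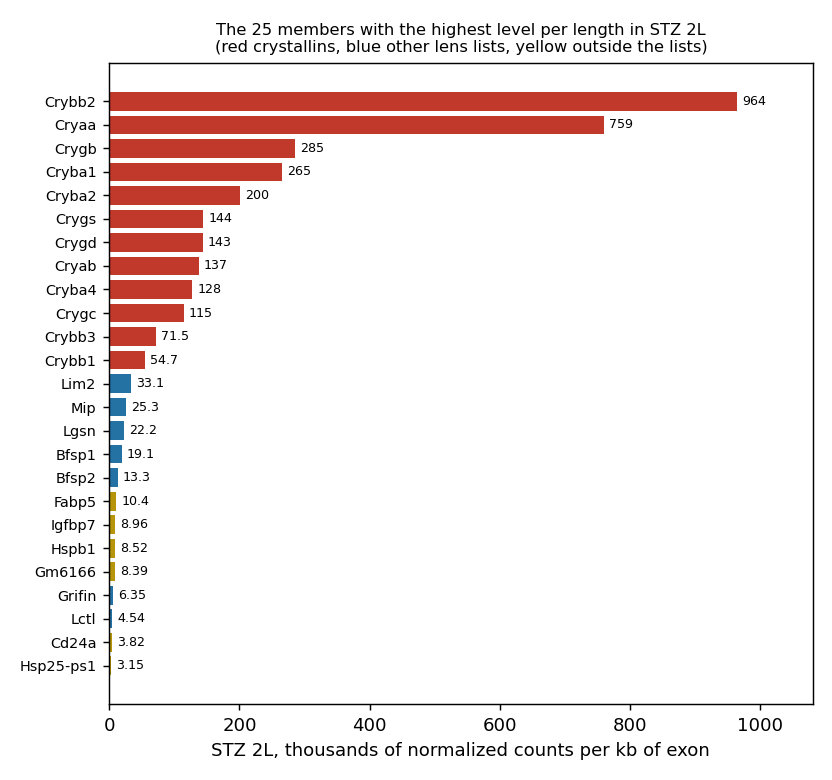
The bars give the level per length in STZ 2L, in units of 1000 normalized counts per kilobase of exon, for the 25 highest members, with red for crystallins, blue for other lens lists and yellow for genes outside the lists. Crybb2 (964075 per kilobase) and Cryaa (759105) stand apart, and Lim2 (33063) is the highest member that is no crystallin. With lengths over all annotated transcripts, not drawn here, Cryaa leads Crybb2 and Mip leads Lim2.

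The 4 crystallin classes did not keep the same proportions in the other libraries. Beta crystallins were 51.4% of the crystallin level per kilobase in STZ 2L and 42.4%, 43.6% and 18.2% in STZ 4R, control 2L and control 4R. Alpha crystallins were 27.4% in STZ 2L and 40.3%, 44.2% and 76.3% in STZ 4R, control 2L and control 4R, where Cryab held most of the crystallin signal. Gamma crystallins A to F were 16.7%, 12.8%, 9.10% and 2.52% in the same order, and gamma S and N between 3.02% and 4.50%. Across the 14 crystallins without Cryab, log2 levels in STZ 2L had a Pearson correlation of 0.984 with those in STZ 4R, 0.993 with control 2L and 0.797 with control 4R. Over all 15, with Cryab, the correlations were 0.955, 0.970 and 0.711 in the same order. These are correlations over genes of 1 family, which share sequence and are not independent replicates, and with STZ 2L as the common library.

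Control 4R thus held the least of the crystallins. The median log2 difference between STZ 4R and control 2L was 0.32 over the 15 crystallins, while STZ 4R lay 2.83 above control 4R and control 2L lay 2.81 above it. For the other 59 members these medians were 0.05, 0.06 and 0.10, and for all genes with at least 10 in at least 2 libraries each lay within 0.01 of 0. Both STZ 4R and control 2L exceeded control 4R in 13 of 15 crystallins and in 5470 of 18127 of those genes. The exceptions were Cryab and Crygn, both known from neural tissue as well. The ordering crosses the treatment, with a control and an STZ library at like levels. No test was made of it, because the libraries with low values also entered the choice of members.

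Filament and membrane skeleton genes were the second program by reads, with 105608 in STZ 2L, of which Lgsn held 40785. Per length they held 1.58% of the member total, below the 1.87% of water channel, membrane protein and adhesion genes. Bfsp1 (filensin) and Bfsp2 (phakinin) form the beaded filament, an intermediate filament found in lens fibres. Bfsp1 had 45743 normalized counts in STZ 2L and 104, 25.0 and 13.1 in STZ 4R, control 2L and control 4R, so that STZ 4R exceeded both controls. Bfsp2 had 22082 in STZ 2L and 86.8, 45.5 and 43.3 in STZ 4R, control 2L and control 4R. Lgsn (lengsin), a glutamine synthetase relative without that activity, had 43034 in STZ 2L and 43.8, 42.1 and 20.1 in STZ 4R, control 2L and control 4R. The fourth, Prx (periaxin), a membrane scaffold protein also known from myelinating Schwann cells, had 573, 22.3, 39.8 and 19.1 and stood closest to the limit of the rule in this list.

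Membrane proteins of fibre cells gave the steepest differences. Mip (aquaporin of the fibre membrane) had 54310 normalized counts in STZ 2L and 9.10, 14.8 and 4.02 in STZ 4R, control 2L and control 4R. Lim2, a junctional membrane protein of fibres, had 29228 in STZ 2L and 18.2, 28.4 and 1.006 in STZ 4R, control 2L and control 4R. In both, control 2L was the highest of the other 3 libraries. Grifin, a lens galectin that lacks sugar binding, had 3893, 13.2, 25.0 and 2.01 in the same order as Mip. Mip in STZ 2L was 3674 times its largest other value, from 13 reads there (2148 to 6900, counting error only), the largest such ratio among the members with reads elsewhere. Against Cryaa, Mip was scarcer in the other libraries than in STZ 2L. Per kilobase Cryaa was 29.97 times Mip in STZ 2L, 342 times in STZ 4R, 223 times in control 2L and 93.9 times in control 4R.

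Connexins couple the avascular fibre cells to each other, and Gja3 is a connexin of fibres. Gja3 had 2773 normalized counts in STZ 2L and 2.48, 1.14 and 3.02 in STZ 4R, control 2L and control 4R, at most 3 reads outside STZ 2L. Its ratio to the largest other library was 919 (314 to 4459). The connexin of lens epithelium, Gja1, was no member: it had 1698 in STZ 2L and 460, 77.3 and 572 in STZ 4R, control 2L and control 4R. Gja1 is also made by glia and pigment epithelium.

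Transcription factors were rare among members, and 3 of the 20 listed ones qualified. Foxe3, a forkhead factor of lens epithelium, had 384 normalized counts in STZ 2L and 0 reads in the other 3 libraries. It was at least 113-fold higher in STZ 2L than the floor of 3 reads per library. Pitx3, a homeodomain factor of lens and of dopamine neurons, had 306 in STZ 2L and 0, 1.14 and 2.01 in STZ 4R, control 2L and control 4R. Sox1, which activates gamma crystallin genes in mouse fibre cells, had 256, 2.48, 0 and 3.02, and it lies inside the longer non-coding gene Gm5607 on the same strand, so reads in the shared 4832 bases cannot be told apart. None of the 3 had more than 3 reads in any library other than STZ 2L. Maf, a factor of the half-site shown above, was higher in STZ 2L than elsewhere but no member, with 1984 in STZ 2L and 428, 554 and 492 in STZ 4R, control 2L and control 4R. Hsf4, a heat shock factor of fibre cells, had 1096 in STZ 2L and 289 to 335 in the others. Pax6, a master factor of eye development that retina neurons keep expressing, had 9439 in STZ 2L against 9362 to 10216, and so did not stand apart.

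Fibre cells degrade their nuclear DNA with the acid nuclease Dnase2b. It had 372 normalized counts in STZ 2L, 0.827 in the other STZ library and 0 in both controls, a single read outside STZ 2L and a ratio of 450 (80.3 to 17839). Birc7, an inhibitor of apoptosis protein, had 1053 in STZ 2L and 2.48, 3.41 and 2.01 in STZ 4R, control 2L and control 4R. Both genes were nearly absent from the other libraries at this depth. The other 9 measured genes of this list were no members, 6 of them lower in STZ 2L than in the highest other library.

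Metabolism held 2 members of unlike kinds. Lctl, a Klotho family membrane protein known from mouse lens sutures, had 10199 normalized counts in STZ 2L and 13.2, 1.14 and 5.03 in STZ 4R, control 2L and control 4R. Hmox1, the inducible heme oxygenase, had 2960 in STZ 2L and 133, 185 and 132 in STZ 4R, control 2L and control 4R. Lctl was thus at a few reads elsewhere, and Hmox1 at a steady level of 4.45% to 6.26% of its value in STZ 2L. Of the glutathione genes, on which lens clarity depends, Gss had 2725 in STZ 2L and 558 to 667 elsewhere, and Gstm1 2627 against 590 to 741. Neither reached 10 times. Gsto1 had 9458 against 1720 to 3908, and Gpx1 2474 against 1423 to 2315. Gclc (1430 against 1141 to 1465) and Gsr (463 against 468 to 556) did not exceed their largest other value. Nor did Ldha, Hk1, Pfkp and Pgk1, the non-members of this list highest in STZ 2L.

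Signalling genes among the members came from the Wnt and FGF pathways, which act in the lens epithelium and in fibre differentiation. Sfrp1, a secreted Wnt inhibitor, had 4815 normalized counts in STZ 2L and 165, 87.6 and 268 in STZ 4R, control 2L and control 4R. The Wnt ligand Wnt7b had 4221 in STZ 2L and 29.8, 25.0 and 14.1 in STZ 4R, control 2L and control 4R. Fgfr3, an FGF receptor of differentiating fibres, had 1289, 30.6, 29.6 and 27.2. Of these, Sfrp1 was highest in control 4R among the other libraries and Wnt7b lowest there, so the signalling genes did not share an order. A related Wnt ligand outside the lists, Wnt7a, named after its values were seen, had 608, 2.48, 1.14 and 2.01.

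The capsule list gave 2 members. Col4a1, a chain of basement membrane collagen, had 13627 normalized counts in STZ 2L and 672, 681 and 623 in STZ 4R, control 2L and control 4R. Nid1 (nidogen), which links collagen and laminin networks, had 4711 in STZ 2L and 79.4, 73.9 and 53.3 in STZ 4R, control 2L and control 4R. Col4a1 was nearly level across the other 3 libraries and Nid1 lowest in control 4R; blood vessels of the retina also make basement membrane. The partner chain Col4a2, whose gene overlaps Col4a1 on the opposite strand, had 7751 in STZ 2L and 729 to 933 in the others, and Hspg2 (perlecan) 3188 against 187 to 320. Both fell short of 10 times.

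Of the 38 members outside the lists, 7 encode matrix and secreted proteins, 6 enzymes and carriers of metabolism, 6 membrane and surface proteins, 3 cytoskeletal or calcium-binding proteins, 2 small heat shock proteins, 2 Wnt pathway proteins, 1 a transcription factor and 4 other proteins. Another 7 are predicted genes, non-coding RNAs and pseudogenes. These groupings were made after the values were seen. Igfbp7, a secreted IGF-binding protein, was the most abundant, with 10836 normalized counts in STZ 2L and 484, 466 and 588 in STZ 4R, control 2L and control 4R. Fabp5, a fatty acid carrier, had 10269 in STZ 2L and 475, 412 and 408 in STZ 4R, control 2L and control 4R. Both were well detected in every library. Among the members, 2 pseudogenes of predicted models were 98.3% and 97.3% identical to Fabp5 over 409 and 408 bases, so their reads and those of Fabp5 cannot be told apart.

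Hspb1, a small heat shock protein related to the alpha crystallins, had 8781 normalized counts in STZ 2L and 172, 141 and 144 in STZ 4R, control 2L and control 4R. Its pseudogene Hsp25-ps1, 99.8% identical over 441 bases, had 1983, 28.1, 28.4 and 21.1 in the same order, a copy whose reads may be those of Hspb1. The neighbouring Hspb2 (named after its values were seen) had 307 in STZ 2L and 16.5, 6.82 and 23.1 in STZ 4R, control 2L and control 4R. Hspb2 overlaps Cryab by 1030 bases on the opposite strand, and as the strand setting of the counting is not given, reads there cannot be assigned to one of them. In all, 29 members overlapped another gene of the table.

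Cd24a, a surface glycoprotein, had 7764 normalized counts in STZ 2L and 281, 229 and 232 in STZ 4R, control 2L and control 4R. Vit (vitrin), a matrix protein, had 4679 in STZ 2L and 335, 291 and 390 in STZ 4R, control 2L and control 4R. Fam46c, a poly(A) polymerase, had 1910, 95.9, 80.7 and 84.5. These genes again had steady values outside STZ 2L. Tmem40, a membrane protein, had 1857, 14.9, 26.2 and 11.1, S100a4, a calcium-binding protein, 1508, 62.9, 71.6 and 85.5, and the tubulin Tubb6 1484, 37.2, 31.8 and 41.2. Among these 10 most abundant named members outside the lists, only Hspb1, Hsp25-ps1 and Tmem40 stayed under 2% of their STZ 2L value in every other library.

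Programs differed in that percentage. Taking the largest other library as a percentage of STZ 2L, 3 members were at or below 0.1% (Mip, Lim2 and Foxe3), 23 between 0.1% and 0.5%, 4 between 0.5% and 1%, 10 between 1% and 2%, 13 between 2% and 5%, and 21 between 5% and the ceiling of 10%. The second of these bands held 13 of the 15 crystallins, with Cryab and Crygn between 1% and 2%. Over all members the median was 1.42%, 1.41% and 1.16% in STZ 4R, control 2L and control 4R. The crystallin medians were 0.194%, 0.167% and 0.0232%, against 4.10%, 3.57% and 3.59% for members outside the lists. The ceiling is set by the rule, but the spread beneath it is not. In STZ 4R the members ranged from 0 to 9.46%.

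**Figure D4:**
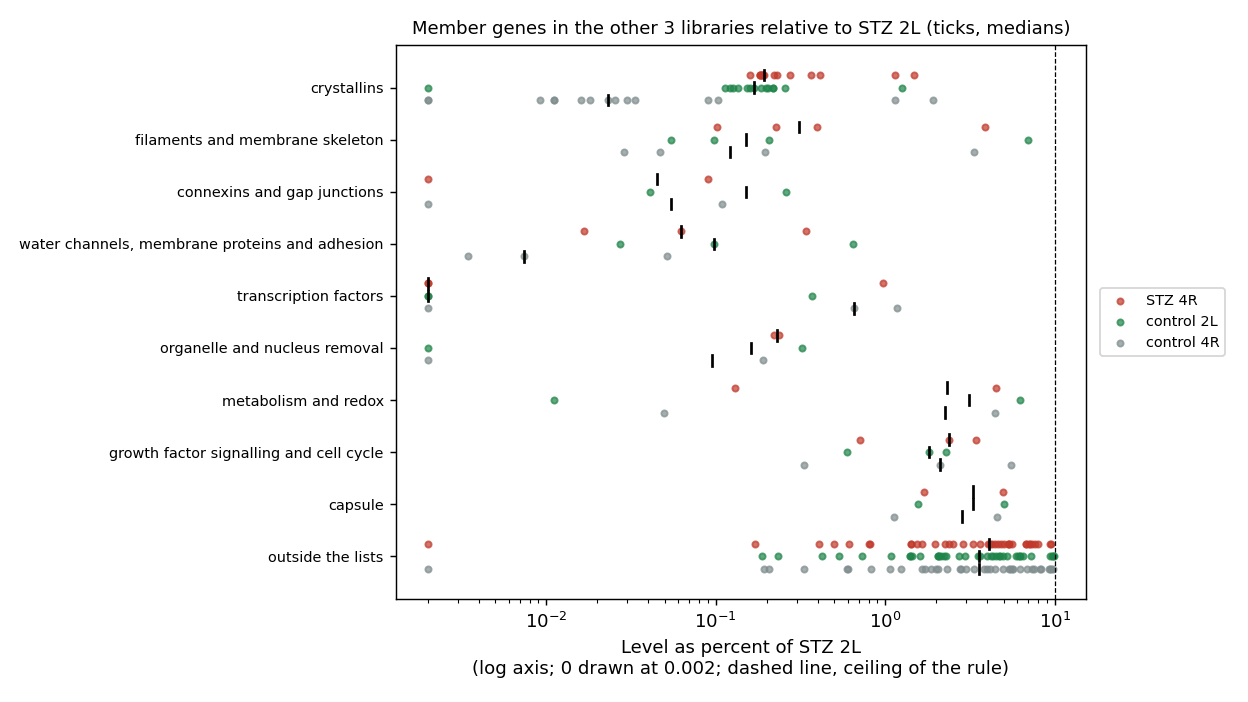
Each point is a member, placed by its level in STZ 4R (red), control 2L (green) or control 4R (grey) as a percentage of its level in STZ 2L, on a log axis with 0 drawn at 0.002. Black ticks are medians within a program, and the dashed line is the ceiling of 10% set by the rule. Crystallin medians lie at 0.194%, 0.167% and 0.0232%, and members outside the lists near 4%.

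The lens lists hold many genes that are no members. Of 145 listed genes found in the table, 36 were members, 1 was 10-fold higher but under 200, 26 were 2 to 10 times the largest other library, 39 were 1 to 2 times and 43 were below it. Of all 11840 genes with at least 200 in STZ 2L, 74 were members, 213 were at 2 to 10 times, 2721 at 1 to 2 times and 8832 below 1, with a median of 0.889. Crystallins had 15 of 16 genes as members and connexins 2 of 3, but transcription factors 3 of 20, and transporters (0 of 10) and RNA granule genes (0 of 6) had none. All 6 genes of the list of RNA granule and post-transcriptional regulators were nevertheless above the largest other library, 3 of them more than 2 times. Carhsp1 had 3646 normalized counts in STZ 2L and 536, 699 and 582 in STZ 4R, control 2L and control 4R, and Rbm24 907, 142, 182 and 108. Vim, the intermediate filament of lens epithelium and of Müller glia, had 15070 in STZ 2L and 3781 to 4250 elsewhere. The lists were assembled with earlier results of these libraries known, so their counts describe and do not support the label.

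**Figure D5:**
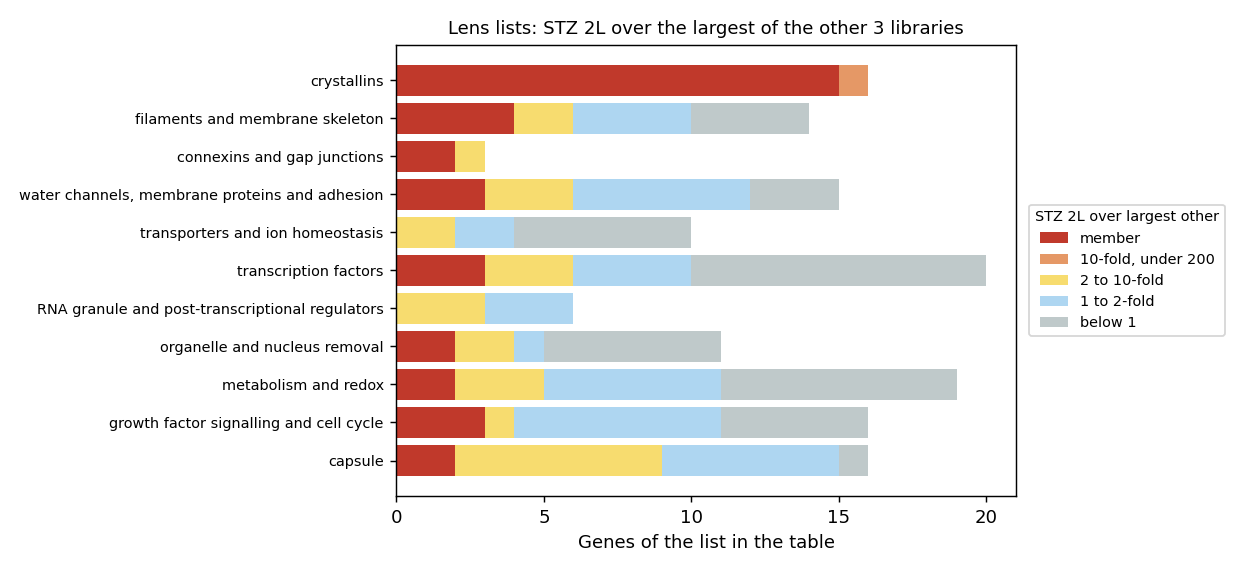
Bars count the genes of each lens list found in the table, coloured by the ratio of STZ 2L to the largest of the other 3 libraries. Red marks members, which make up 15 of 16 crystallins but 3 of 20 transcription factors and 0 of 10 transporters.

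Each limit of the rule fell between genes of close values. The members nearest to the fold limit were Myl4, a myosin light chain, at 10.1 times, Mme, the protease neprilysin, at 10.2 and Pgam2, a glycolytic enzyme, at 10.25. Just outside lay Gstm2 at 9.98 times, Hspg2 at 9.97 and Nupr1 at 9.92. At the level limit, Serpinb6b (206 normalized counts), Myl4 (229) and Pgam2 (245) were just inside. Just outside were Gpr160 (174), Slc38a4 (121) and Cryga (120).

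The comparison of STZ with control retinas is the study's own contrast, and the members enter it with 1 of the 2 STZ libraries high. Of the 74 members, 58 had at least 10 normalized counts in at least 2 libraries and were tested with limma on log2(value + 1); the other 16, among them Gja3, Foxe3 and Dnase2b, had such a level only in STZ 2L. Past an adjusted p of 0.05 there were 0 members higher in STZ, where 0 of all 18127 genes (0%) passed. At an unadjusted p under 0.05, 17 of the 58 members were higher and 0 lower, where 419 of all genes (2.31%) were higher. Past an adjusted p of 0.05, 4 members were higher in STZ in the authors' deposited table, where 52 of 18478 genes (0.281%) were. On recovered reads, 0 members passed in edgeR (quasi-likelihood) and 4 in DESeq2, where they passed 0 and 52 genes in all. DESeq2 thus tested (18478) and passed as many genes as the authors' deposited table, so its counts may not be a separate result. Those 4 in the authors' deposited table were Foxe3 (log2 fold change 22.66, adjusted p = 0.00150), Bfsp1 (10.23, adjusted p = 0.0159), Lctl (10.69, adjusted p = 0.0378) and Mip (11.50, adjusted p = 0.0435). Foxe3 had 364 reads in STZ 2L and 0 in every other library, so the size of its fold change cannot be read. Cryaa and Crybb2 did not pass in the authors' deposited table, each at an adjusted p of 0.162. Because the rule used this contrast, nothing is read from these counts.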

How the data were processed

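Values for 43280 genes in 4 libraries were analysed. Per the submitters' processing notes and the labels' protocols, reads were handled in Torrent Suite 5.4.0, aligned to mm10 with STAR and Bowtie2, and counted with HTSeq and Picard. No source used here says which gene annotation was used, whether counting took account of strand, or what program made the authors' comparison. The deposited signal values are gene counts divided by 1 size factor per library. The authors' deposited table also holds a mean signal, a log2 fold change with its error, a test score, p-values and adjusted p-values.

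In every library 100% of values were whole multiples of the value of 1 read, to within 0.01 reads, which gave the read totals behind the shares. In control 4R that value was 1.006, near 1, but larger values there were not whole numbers themselves, such as 236.38 for the 235 reads of Cryaa. Tests on these reads were alternatives only: edgeR 4.0.16 called 0 genes and DESeq2 1.42.0 called 52. The main test was limma 3.58.1 (R 4.3.3) on log2(value + 1), chosen because the values are normalized, with treatment as the only term, all libraries, a filter of 10 in at least 2 libraries, two-sided p and Benjamini-Hochberg adjustment. Scripts were tested on simulated data. With 2 libraries a group and no statement of separate animals, p-values measure the spread between these libraries, which may be technical.

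Exon lengths and transcripts came from GENCODE M21 (73 of 74 members matched) and promoters from RefSeq GRCm38.p6 (56 members matched, 14 of them crystallins). Transcript identity came from blastn. Named genes were the 3 markers, every crystallin and the 3 highest members of each other lens list. The 10 highest members outside the lists, without predicted models, were also named. So were up to 4 non-members a list, those highest in STZ 2L, and the genes at the limits. Wnt7a, Hspb2, Prx and the genes set beside a listed one for overlap or sequence were named after their values were seen. The same holds for Maf, Hsf4, Rbm24 and the glutathione genes, which lay outside the 4 highest non-members of their lists. Some genes of the naming rule are not reported here. Members and lists were chosen with earlier results of these data known. Alternatives covered the limits of the rule, scaling, filter, pseudocount, test, gene length and each library left out.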

Additional observations from a re-analysis of the deposited data

How the results depend on the processing

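The members' shares rest on a single library without a replicate, and the rule cannot be applied without STZ 2L. The number of members was 117 at 5 times in place of 10 (all 74 among them), and 73 to 82 under TMM scaling, at a level of 100 or without 1 of the other libraries (lowest 77, highest 82 over those omissions); it was 53 at 20 times and 53 at a level of 500. The share of reads in members was 10.0%, 0.0607%, 0.0536% and 0.0412% at 5 times and 9.75%, 0.0308%, 0.0294% and 0.0145% at 20 times (STZ 2L, STZ 4R, control 2L, control 4R). With members chosen without 1 other library it ran from 9.85% to 9.88%, 0.0369% to 0.0463%, 0.0351% to 0.0375% and 0.0211% to 0.0233%. For the 30 members under 1% in every other library, an alternative chosen after seeing the data, it was 9.07%, 0.0182%, 0.0171% and 0.00246%. The crystallin share of member reads was 89.4%, 38.7%, 43.1% and 20.6% at 5 times, 91.7%, 76.3%, 78.7% and 58.3% at 20 times, and 89.8%, 63.6% and 66.7% without Cryga to Crygf in the first 3. Median percentages of STZ 2L (STZ 4R, control 2L, control 4R) were 0.252%, 0.211% and 0.0708% for members with at least 2000, 0.225%, 0.192% and 0.0480% for those in the lists, and 1.45%, 1.42% and 1.18% under TMM scaling. Cryaa held 29.6% and crystallins 90.9% of the member total not divided by length. With lengths over all transcripts, added after seeing the data, Cryaa held 21.4%, Crybb2 18.9% and crystallins 93.0%. In the main setting Crybb2, at 27.8%, was above Cryaa. The limma count of higher genes, 0, was 13 with no filter, and 52 in DESeq2; without 1 library it ran from 8 to 551, and of lower genes from 0 to 40, highest without STZ 4R. With 1 library left in a group, its spread is assumed to be that of the other group. With the replicate block, the library tag, limma passed 0 genes (476 higher and 155 lower unadjusted). The pairing check gave a correlation of 0.0988 over genes between the 2L minus 4R differences of the groups; with 2 pairs the libraries share only a tag. For changes of value whose construction does not show it, the cause was not tested.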

Other observations

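The same rule was applied with each other library in turn as the high one. It gave 0 genes for STZ 4R, 0 for control 2L and 0 for control 4R, against 74 for STZ 2L. At 5 times in place of 10, STZ 4R had 1 gene, the cornea keratin Krt12, at 5.70 times its largest other value, and each control had 0. The largest ratio was 2.12 in control 2L and 2.13 in control 4R among genes of at least 200, and 3674 in STZ 2L, for Mip.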
